A study of Homo sapiens with 12 samples.

Results

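The S100 genes encode small calcium-binding proteins, and 10 of them were followed here in 2 human pancreatic cancer cell lines: S100A2, S100A4, S100A6, S100A8, S100A9, S100A10, S100A11, S100A14, S100A16 and S100P. They were taken by symbol from a table of microarray signals in which 19775 genes had at least 1 probe set annotated to a single symbol. Each gene was read from the probe set with the highest mean over the 12 arrays, and all 10 genes were found and were among the 16110 genes bright enough to be tested. BxPC-3, a line grown from a primary tumour, and AsPC-1, a line grown from ascites, were each measured after 4 h with the phorbol ester PMA (phorbol 12-myristate 13-acetate) at 1 µM and as untreated cells. The 4 groups of 3 arrays were thus BxPC-3 with PMA, BxPC-3 untreated, AsPC-1 with PMA and AsPC-1 untreated. All cells, untreated ones included, had spent the night before in 2.5% serum. PMA was dissolved in DMSO, and the labels do not say whether untreated cells received DMSO too. The 3 arrays of a group came from 3 passages of the line, and within a line a replicate number stands for 1 passage, split between PMA and no treatment. Each tumour type is represented by 1 line, so a difference between the lines cannot be told apart from a difference between those 2 cultures.

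S100 proteins carry a pair of EF-hand loops that close around calcium, and most of them work as dimers that open a binding surface for a target protein when calcium rises. Inside cells they act on annexins, myosin, ezrin and other proteins of the membrane and cytoskeleton, and several are released and bind receptors such as RAGE (gene AGER) and TLR4. Many S100 genes lie side by side in the epidermal differentiation complex, and several, S100P among them, are known as markers of pancreatic ductal cancer. PMA mimics diacylglycerol and switches on protein kinase C, whose signalling activates the transcription factor AP-1.

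Signals are MAS5 intensities on a linear scale, and every array had been scaled so that its mean without the highest and lowest 2% of probe sets lay between 99.98 and 99.99. Depth has no meaning for arrays, and the precision rests on 3 arrays a group. Changes are differences of log2(signal + 3), PMA minus untreated or BxPC-3 minus AsPC-1, and understate changes of dim genes. They were tested with limma over all 16110 genes, and a gene was called when its Benjamini-Hochberg adjusted p was under 0.05. The 5 epithelial markers EPCAM, KRT8, KRT18, KRT19 and CDH1 had mean signals between 819 and 10173 in every group, whereas of the pancreatic duct markers KRT7 averaged 2990 with PMA and 2684 untreated in BxPC-3, against 97.9 and 119.8 in AsPC-1; SOX9 averaged 194 and 111 in BxPC-3, against 764 and 433 in AsPC-1; and CFTR was dim in both lines, with group means between 3.36 and 14.2. Of the 5 fibroblast markers, LUM alone had a mean over 100 in AsPC-1, at 2560 with PMA and 2478 untreated. In BxPC-3 COL1A1 alone passed it with PMA, at 131, and none did untreated. No acinar or endothelial marker measured had a mean over 100. AsPC-1 with PMA replicate 1 stood apart. Its correlation over all genes was 0.921 with the rest of its group on average. With the untreated array of the same passage it was 0.964. Without AsPC-1 PMA replicate 1, 2426 genes were called with PMA in BxPC-3 and 3167 in AsPC-1, against 968 and 313 with it. Between the lines 6597 were then called untreated and 6592 after PMA, against 5274 and 5434 with it. List counts are read beside those totals. Values without this array are given beside many of the results below, and results given without such a value may have moved too. That fit kept the untreated AsPC-1 array of the same passage. This untreated array also stood lowest in its own group. Its mean correlation with the other 2 arrays was 0.950, against 0.960 and 0.962 for untreated replicates 2 and 3. In that fit the treated and untreated AsPC-1 arrays therefore no longer came from the same passages.

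Of the 10 genes, 9 lie on chromosome 1 and S100P lies on chromosome 4. All 10 matched RefSeq's promoter windows (GRCh38.p14), with 14 windows between them, since a gene can have several starts. The 4 windows below are shown because S100A2, S100A4, S100A9 and S100P had large differences between the lines, and because each holds a motif that was searched for. Each line is the strand of the gene, 5′ to 3′, and covers the 250 bases before the start; capitals mark the AP-1 motif TGAGTCA (or its reverse complement) or the TATA box motif TATAAA. The S100A2 window is chr1:153565845-153566094 on the minus strand, the S100A4 window chr1:153545807-153546056 on the minus strand, the S100A9 window chr1:153357604-153357853 on the plus strand, and the S100P window chr4:6693628-6693877 on the plus strand.
S100A2: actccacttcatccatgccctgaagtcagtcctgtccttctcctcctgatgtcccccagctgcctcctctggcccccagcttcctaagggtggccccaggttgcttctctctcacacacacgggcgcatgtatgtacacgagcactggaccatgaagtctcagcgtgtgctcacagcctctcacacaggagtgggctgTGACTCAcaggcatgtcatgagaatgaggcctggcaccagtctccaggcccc
S100A4: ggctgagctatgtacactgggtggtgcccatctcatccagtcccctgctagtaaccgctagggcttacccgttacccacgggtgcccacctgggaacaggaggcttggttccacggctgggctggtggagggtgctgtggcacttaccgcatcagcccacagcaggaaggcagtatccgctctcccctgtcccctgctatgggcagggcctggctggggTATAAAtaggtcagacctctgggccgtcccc
S100A9: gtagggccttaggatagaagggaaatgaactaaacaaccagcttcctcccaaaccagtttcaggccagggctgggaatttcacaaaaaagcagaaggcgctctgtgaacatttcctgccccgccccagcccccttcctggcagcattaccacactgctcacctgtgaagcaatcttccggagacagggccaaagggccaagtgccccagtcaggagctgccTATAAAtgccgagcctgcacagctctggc
S100P: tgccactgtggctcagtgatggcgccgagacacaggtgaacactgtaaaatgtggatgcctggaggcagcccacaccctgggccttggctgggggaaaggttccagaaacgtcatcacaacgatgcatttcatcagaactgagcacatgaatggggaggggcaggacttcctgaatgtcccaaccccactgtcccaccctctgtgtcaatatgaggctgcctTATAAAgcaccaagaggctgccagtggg

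TGAGTCA, searched on both strands, was found in 1 of the 14 windows, that of S100A2 at 52 bases before the start, and in 4.20% of all 35116 RefSeq windows. TATAAA, searched on both strands too, was found in 5 of the 14 windows and in 10.7% of all windows. It began 31 bases before the start in S100A4, 29 in S100A9 and 28 in S100P. The other 2 of these windows belong to S100A8 and overlap, and the same TATAAA was counted in both. The cyclic AMP motif TGACGTCA was in 0 of the 14 windows and in 1.65% of all windows. The number of CG pairs per window was 24 in S100A10, 24 in S100A6, 15 in S100A11 and 7 in S100A4, against a median of 11 over all windows; the windows printed above for S100A2, S100A9 and S100P held 4 each. A match is a run of letters and was not tested as a binding site.

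The differences between the lines covered most of the genes. In untreated cells 4 of the 10 were higher and 3 lower in BxPC-3 than in AsPC-1 (limma, adjusted p under 0.05), where 17% and 15.8% of all genes tested were called higher and lower. After PMA 4 were higher and 4 lower, against 18.4% and 15.3% of all genes. S100A2, S100A9, S100A14 and S100P were the 4 higher genes in both states, and S100A4, S100A6 and S100A10 were lower in both. S100A16 was called lower after PMA and missed the threshold in untreated cells. S100A8 and S100A11 were called in neither state. Fewer were called with PMA: S100A4 and S100A6 rose in BxPC-3, 2 of 10 against 2.61% of all genes, and S100P rose in AsPC-1, 1 of 10 against 1.21%. None fell in either line, where 3.4% of all genes fell in BxPC-3 and 0.732% in AsPC-1. With shares this small, 0 of 10 says little about these genes. At an unadjusted p under 0.05 in limma 3 were higher in BxPC-3 and 6 in AsPC-1, and none was lower. Over all 16110 genes 3381 were under it in BxPC-3 and 2675 in AsPC-1, in either direction.

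**Figure D1:**
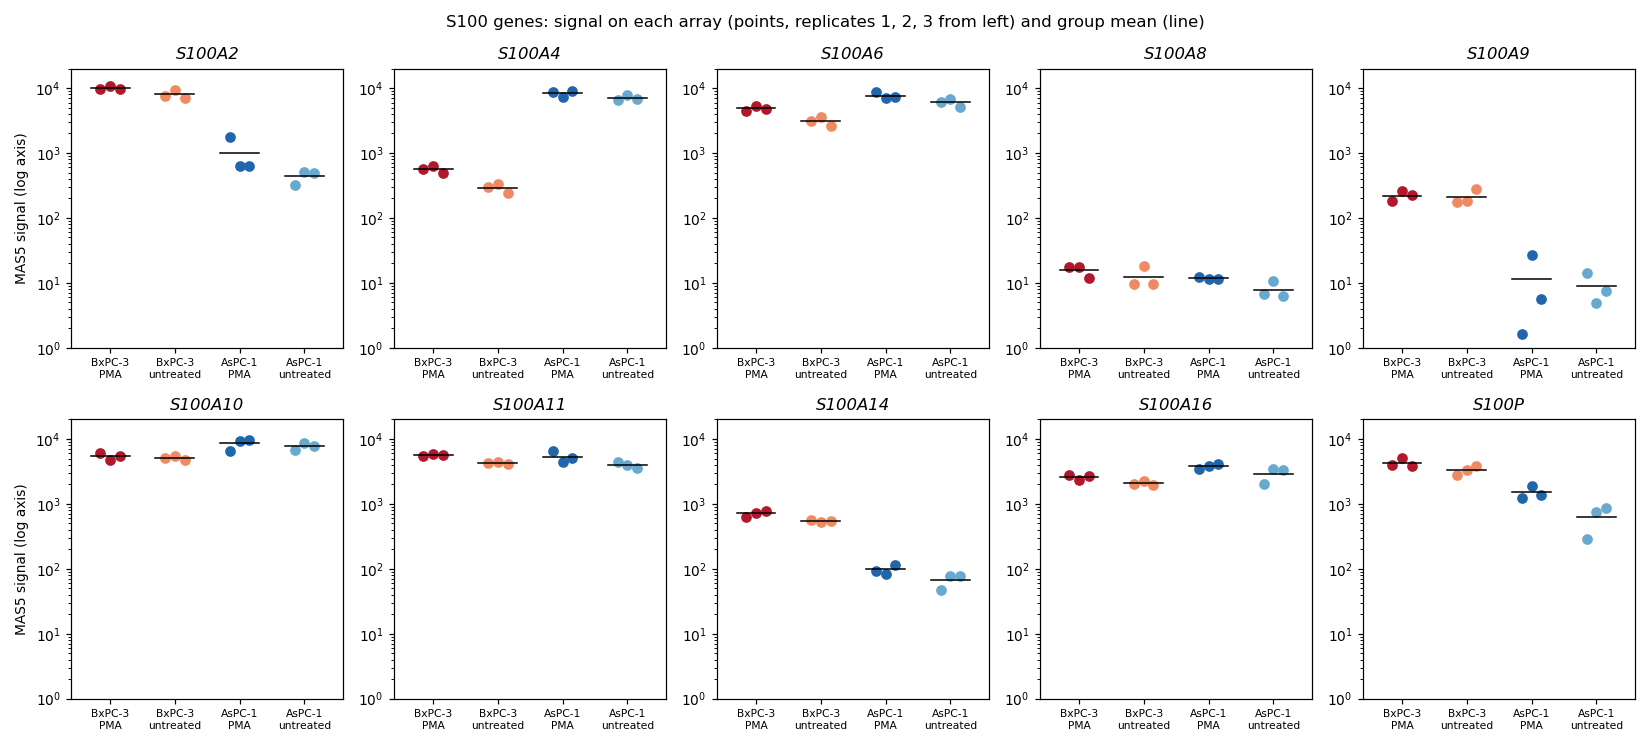
MAS5 signal on a log axis of the 10 S100 genes on each of the 12 arrays, 1 panel a gene. Points are arrays and the line is the mean of the 3 arrays of a group. S100A2, S100A9, S100A14 and S100P sit higher in both BxPC-3 groups than in both AsPC-1 groups, S100A4 sits lower, and S100A8 is dim in all 4 groups.

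S100A4, called metastasin and known for binding non-muscle myosin IIA and for promoting cell movement, had the largest difference between the lines among the 10 genes in untreated cells. Its signal was 571, 633 and 489 in BxPC-3 with PMA and 304, 329.5 and 244 in untreated BxPC-3. In AsPC-1 it was 8630.4, 7416 and 8914 with PMA and 6577, 7789.7 and 6748 untreated. Every AsPC-1 array was thus far above every BxPC-3 array, and within BxPC-3 the treated arrays lay above the untreated ones without overlap. BxPC-3 minus AsPC-1 was -4.58 ± 0.15 (SE, limma) untreated, with an adjusted p of 1.18e-10, and AsPC-1 was 23.9-fold higher. By size and in this direction it ranked 101 of the 16110 genes. After PMA the difference was -3.88 ± 0.15, with an adjusted p of 4.15e-10 and a 14.7-fold higher signal in AsPC-1. PMA raised S100A4 in BxPC-3 by 0.94 ± 0.15, or 1.92-fold, with an adjusted p of 0.00274, and by 0.90, 0.93 and 0.99 in the 3 passages. It was called in 23 of 23 other settings, at changes of 0.82 to 1.08, though many of these settings could not move its estimate. In AsPC-1 the change was 0.24 ± 0.15 with an adjusted p of 0.459, and the groups overlapped. Whether fewer cells carry a transcript or each cell carries less of it cannot be told apart in such bulk RNA.

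S100A6, or calcyclin, binds the CACYBP adaptor and annexins and is linked to proliferation. Its signal was 4491, 5392 and 4703 in BxPC-3 with PMA, against 3151, 3555 and 2600.4 in untreated BxPC-3. In AsPC-1 it was 8827, 7019.6 and 7189 with PMA and 6208, 6832 and 5086 untreated. Like S100A4 it was lower in BxPC-3 in both states, by smaller amounts: -0.96 ± 0.15 untreated (limma, adjusted p 0.000177) and -0.66 ± 0.15 after PMA (adjusted p 0.00326). Without AsPC-1 PMA replicate 1 its difference after PMA was -0.55 ± 0.15 (adjusted p 0.0103). PMA raised it in BxPC-3 by 0.65 ± 0.15, 1.57-fold, with an adjusted p of 0.0192. In 15 of 23 other settings this rise was called. It was not called without BxPC-3 untreated replicate 1 (adjusted p 0.0614) or 3 (0.106), or without BxPC-3 PMA replicate 2 (0.0873) or 3 (0.0629). A second, much dimmer probe set gave 0.46 with an adjusted p of 0.580. In AsPC-1 the change was 0.35 ± 0.15, with an adjusted p of 0.247, or 0.24 ± 0.15 without PMA replicate 1 (adjusted p 0.314).

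S100A2 is a mainly nuclear protein of basal epithelial cells that binds the tumour suppressor p53. It gave 9528, 10599 and 9772 in BxPC-3 with PMA and 7628, 9426 and 6946 in untreated BxPC-3. In AsPC-1 the values were 1752, 632 and 630.2 with PMA, and 318, 503 and 498 untreated. All BxPC-3 arrays lay above all AsPC-1 arrays, and 1 of the 3 treated AsPC-1 arrays, the one that stood apart, was well above the other two. Untreated, BxPC-3 was higher by 4.19 ± 0.32, 18.3-fold, with an adjusted p of 2.87e-07. After PMA it was higher by 3.48 ± 0.32, or 3.97 without AsPC-1 PMA replicate 1, with adjusted p-values of 1.84e-06 and 2.29e-09. The BxPC-3 signals reached the 99.9th percentile of their arrays or higher, and saturation was not tested. PMA's change was 0.33 ± 0.32 in BxPC-3, with an adjusted p of 0.621. In AsPC-1 it was 1.04 ± 0.32, with an adjusted p of 0.121. By passage it was 2.45, 0.33 and 0.34 in AsPC-1, and without PMA replicate 1 the change was 0.55 ± 0.19, with an adjusted p of 0.0539. Neither fit called it.

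S100A14, an epithelial S100 protein, and S100A16, a broadly expressed relative, sit next to each other in the cluster but differed in opposite directions. S100A14 had 628, 728 and 783 in BxPC-3 with PMA and 569.8, 529 and 546 in untreated BxPC-3, while AsPC-1 had 94.3, 84.3 and 115 with PMA and 47.4, 76.4 and 78.3 untreated. No array of one line overlapped the other line. The excess in BxPC-3 was 3.00 ± 0.21 untreated, 8.01-fold (adjusted p 1.61e-07), and 2.83 ± 0.21 after PMA, 7.13-fold (adjusted p 2.89e-07). The treated arrays lay above the untreated ones in both lines, but the changes were not called, at 0.37 ± 0.21 in BxPC-3 (adjusted p 0.356) and 0.54 ± 0.21 in AsPC-1 (adjusted p 0.219). S100A16 had 2772, 2338 and 2689 in BxPC-3 with PMA and 2043, 2279 and 1931 in untreated BxPC-3, while AsPC-1 had 3506, 3876 and 4136 with PMA and 2002, 3412 and 3379 untreated. The low untreated AsPC-1 replicate 1 overlapped the BxPC-3 arrays. BxPC-3 minus AsPC-1 was -0.45 ± 0.18 untreated (adjusted p 0.0699), and -0.71 with an adjusted p of 0.000823 without that array. After PMA it was -0.56 ± 0.18 with an adjusted p of 0.0268, and 17 of 23 other settings called it. It was not called without AsPC-1 PMA replicate 2 (adjusted p 0.0651) or 3 (0.0859), or without BxPC-3 PMA replicate 2 (0.0984) or 3 (0.0571).

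S100P, which binds ezrin and RAGE and is known from placenta and from pancreatic ductal cancer, had 4048, 5059 and 3900.2 in BxPC-3 with PMA and 2827, 3338 and 3882 in untreated BxPC-3. In AsPC-1 it had 1249, 1889 and 1366 with PMA and 288, 753 and 856 untreated. Both lines carried it clearly, with BxPC-3 higher by 2.53 ± 0.32 untreated (limma, adjusted p 3.5e-05), or 5.79-fold. After PMA the difference was 1.54 ± 0.32, or 2.91-fold, with an adjusted p of 0.00194. In AsPC-1 PMA raised S100P 2.58-fold, by 1.37 ± 0.32, with an adjusted p of 0.0470, and the treated arrays did not overlap the untreated ones. By passage the rise was 2.10, 1.32 and 0.67. Only 7 of 23 other settings called it, and the adjusted p of the rest lay between 0.0540 and 0.381. Without AsPC-1 PMA replicate 1 the rise was 1.49 ± 0.35 with an adjusted p of 0.00769, and without PMA replicate 2 it was 1.19 with an adjusted p of 0.211. In BxPC-3 the change was 0.37 ± 0.32, with an adjusted p of 0.565. The difference of the responses of the lines was -0.99 ± 0.45, with an unadjusted p of 0.0463 and an adjusted p of 0.548.

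S100A8 and S100A9 pair to form calprotectin, a zinc- and manganese-binding complex that is abundant in neutrophils and monocytes, is released at inflammation and can bind TLR4 and RAGE. S100A9 was called between the lines and S100A8 was not. S100A9 gave 181, 257 and 223 in BxPC-3 with PMA and 176, 184 and 278 in untreated BxPC-3. In AsPC-1 it gave 1.62, 26.8 and 5.69 with PMA and 14.1, 4.92 and 7.46 untreated, which is dim and scattered. BxPC-3 was higher by 4.23 ± 0.53 untreated, 18.8-fold (adjusted p 3.2e-05), and by 4.38 ± 0.53 after PMA, 20.8-fold (adjusted p 2.37e-05). Without AsPC-1 PMA replicate 1, its lowest array, the second difference was 3.78. PMA's change was 0.07 ± 0.53 in BxPC-3 and -0.08 ± 0.53 in AsPC-1, and the adjusted p-values were 0.964 and 0.963. Without AsPC-1 PMA replicate 1 the AsPC-1 change was 0.52 ± 0.45, with an adjusted p of 0.486. S100A8 gave 17.4, 17.4 and 11.7 in BxPC-3 with PMA and 9.70, 18.3 and 9.47 in untreated BxPC-3. In AsPC-1 it gave 12.5, 11.5 and 11.5 with PMA and 6.64, 10.6 and 6.32 untreated. These signals lay between the 33.2nd and 55.4th percentile of their arrays, near the limit for testing. The line differences were 0.49 ± 0.33 untreated (limma, adjusted p 0.298) and 0.31 ± 0.33 after PMA (adjusted p 0.535). A second S100A8 probe set was dimmer still, with signals between 0.178 and 1.50 over the 12 arrays. Markers of leukocytes were low in BxPC-3: the 7 of 7 measured had group means between 2.38 and 18.1, with summed signals of 65.3 to 93.3 with PMA and 58.3 to 74.6 untreated, and none was over 100. In AsPC-1 the only one over 100 was lysozyme (LYZ), at 2177 with PMA and 2239.9 untreated, and the summed signals were 1999 to 2530.4 with PMA and 2022 to 2812 untreated.

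S100A10 and S100A11 are the annexin partners. S100A10, or p11, has lost calcium binding and forms a tetramer with annexin A2 that binds plasminogen at the cell surface, and S100A11 binds annexin A1. S100A10 had 6036, 4747 and 5441 in BxPC-3 with PMA and 5069, 5506 and 4784 in untreated BxPC-3, against 6575, 9472 and 9667 with PMA and 6862, 8671 and 7822 untreated in AsPC-1. Every AsPC-1 array lay above every BxPC-3 array. BxPC-3 was lower by 0.60 ± 0.15 on the log2 scale untreated (difference -0.60, adjusted p 0.00706) and by 0.65 ± 0.15 after PMA (difference -0.65, adjusted p 0.00407). A dimmer second probe set differed by -0.75 untreated and -1.22 after PMA, with adjusted p-values of 0.466 and 0.213. PMA's change in S100A10 was 0.07 ± 0.15 in BxPC-3 (adjusted p 0.836) and 0.12 ± 0.15 in AsPC-1 (adjusted p 0.742), or 0.30 ± 0.13 in AsPC-1 without PMA replicate 1 (adjusted p 0.126). S100A11 had 5428, 5845 and 5653.5 in BxPC-3 with PMA and 4318, 4468 and 4097 in untreated BxPC-3, against 6593, 4397 and 5082 with PMA and 4471, 3939.7 and 3603 untreated in AsPC-1. The lines overlapped, and their difference was 0.11 ± 0.14 untreated and 0.09 ± 0.14 after PMA, or 0.25 ± 0.12 after PMA without AsPC-1 PMA replicate 1 (adjusted p 0.104). Its changes with PMA were 0.39 ± 0.14 in BxPC-3 (adjusted p 0.108) and 0.40 ± 0.14 in AsPC-1 (adjusted p 0.152). With passage as a block both were called, with adjusted p-values of 0.0367 and 0.0492. Without AsPC-1 PMA replicate 1 the BxPC-3 change was called, with an adjusted p of 0.0222, and the AsPC-1 change was 0.24 ± 0.12, with an adjusted p of 0.177.

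Across the 10 genes the change with PMA was positive for 10 of 10 in BxPC-3, with a median of 0.35 beside -0.00085 for all genes tested, and for 9 of 10 in AsPC-1, with a median of 0.42 beside -0.10. The exception was S100A9, and without AsPC-1 PMA replicate 1 it was 10 of 10, with a median of 0.46 beside -0.13. Centring each array on its median moved the all-gene medians to 0.13 in both lines. The medians of the 10 genes moved too, to 0.49 in BxPC-3 and 0.64 in AsPC-1, with 10 of 10 positive in each. Quantile normalization left 9 of 10 positive in BxPC-3 and 8 of 10 in AsPC-1. Their medians were 0.19 in both lines, beside 0.0043 in BxPC-3 and -0.028 in AsPC-1 for all genes. With the centring, the genes called in BxPC-3 were 523 higher and 442 lower, against 421 and 547 without it, and in AsPC-1 220 higher and 71 lower, against 195 and 118. In BxPC-3 the 3′ to 5′ signal ratio of ACTB, a measure of RNA integrity, was 1.84, 1.99 and 2.02 with PMA. Untreated it was 2.56, 2.95 and 4.14, so the ACTB ratio moved with treatment. The same ratio of GAPDH overlapped, at 1.00, 1.07 and 1.02 with PMA and 1.04, 1.06 and 1.12 untreated. The part of RNA integrity in these changes was not tested. In AsPC-1 the ACTB ratio lay between 1.79 and 2.32 with PMA and between 2.22 and 2.27 untreated.

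**Figure D2:**
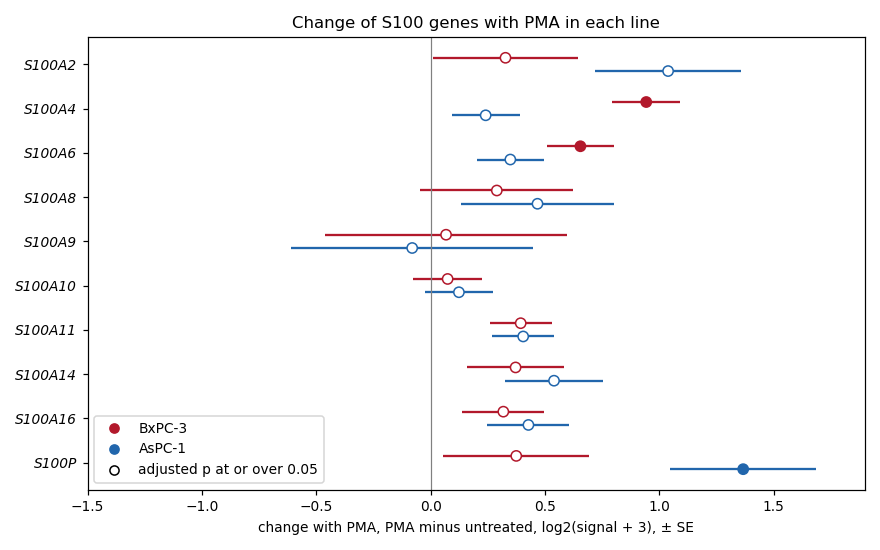
Change with PMA of each S100 gene in BxPC-3 (red) and AsPC-1 (blue), as PMA minus untreated in log2(signal + 3), with bars of 1 SE from limma; filled points have an adjusted p under 0.05. The filled points are S100A4 and S100A6 in BxPC-3 and S100P in AsPC-1, and most open points lie right of 0.

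No S100 gene passed the test for a difference between the lines in its response to PMA (limma, 0 of 10 called), where 0.31% of all genes had a higher and 0.186% a lower change in BxPC-3. At an unadjusted p under 0.05 there were 2, S100A4 and S100P, where 1451 of all 16110 genes were under it. The S100A4 difference was 0.70 ± 0.21, with a 95% interval of 0.25 to 1.16, an unadjusted p of 0.00517 and an adjusted p of 0.270. Without AsPC-1 PMA replicate 1 it was 0.73 ± 0.21, with an adjusted p of 0.0728. The other intervals are wide: that of S100A9 ran from -1.46 to 1.76, and that of S100A11, the narrowest, from -0.42 to 0.40.

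The 9 genes on chromosome 1 share a stretch in which neighbours differed in opposite directions between the lines. In RefSeq's gene order S100A10 and S100A11 come first. Further along follow S100A9, S100A12, S100A8, S100A7A, S100A7, S100A6, S100A5, S100A4, S100A3, S100A2, S100A16, S100A14, S100A13 and S100A1. S100A4, which was lower in BxPC-3, lies directly beside S100A3, which was higher by 0.95 ± 0.26 untreated (adjusted p 0.0133), and S100A3 lies beside S100A2, also higher. S100A16 lies between S100A2 and S100A14. S100A9 and S100A8 are separated by S100A12 alone, a further calprotectin relative, which was dim, with group means between 6.29 and 9.18.

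**Figure D3:**
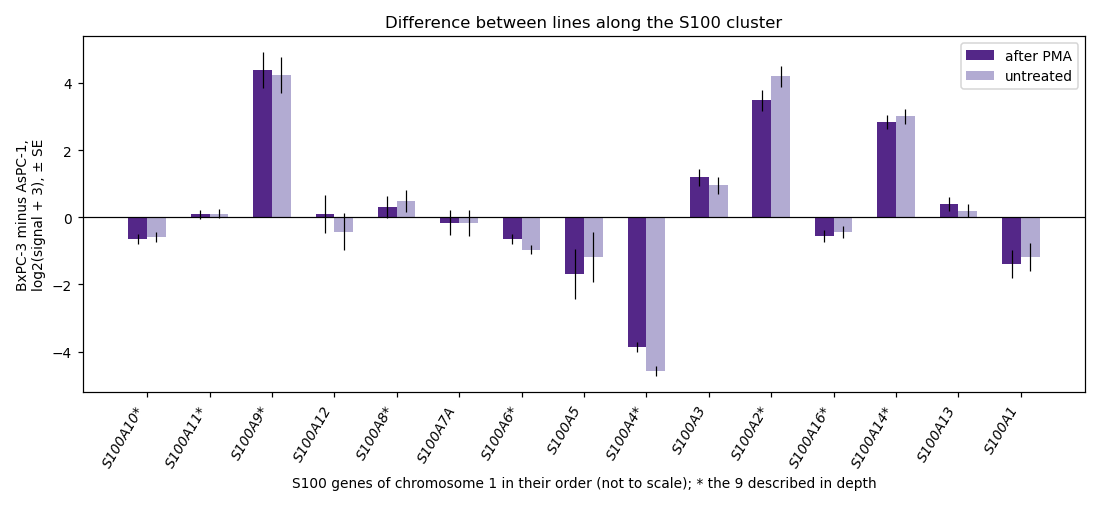
Difference between the lines for 15 tested S100 genes of chromosome 1 in their RefSeq order (spacing not to scale), as BxPC-3 minus AsPC-1 in log2(signal + 3), after PMA (dark) and untreated (light), with bars of 1 SE from limma. S100A9, S100A2 and S100A14 point up, S100A4 points down, and S100A4 points the other way from its neighbour S100A3.

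The other S100 genes tested numbered 6 of 10 listed: S100A1, S100A3, S100A5, S100A7A, S100A12 and S100A13. With PMA 1 of 6 rose and none fell in BxPC-3, and none was called in AsPC-1. In AsPC-1 1 was higher at an unadjusted p under 0.05 in limma, beside 2675 of all 16110 genes in either direction. The riser in BxPC-3 was S100A3, a zinc-rich S100 protein known from hair cuticle. It had 195, 198 and 279 in BxPC-3 with PMA and 102, 90.0 and 73.8 in untreated BxPC-3, against 63.3, 110.1 and 124 with PMA and 43.1, 45.7 and 43.5 untreated in AsPC-1. PMA raised it by 1.30 ± 0.26 in BxPC-3 (limma, adjusted p 0.0114), and in AsPC-1 the change was 1.06 ± 0.26 with an adjusted p of 0.0589, or 1.35 with 0.000581 without PMA replicate 1. The treated arrays lay above the untreated ones in each line. With passage as a block 1 of the 6 was called higher with PMA in AsPC-1. The list's median change was 0.39 in BxPC-3 and 0.48 in AsPC-1. Between the lines 1 of 6 was higher and 1 lower in each state, S100A3 and the dim S100A1, a heart and muscle S100 protein, at -1.20 ± 0.42 untreated (adjusted p 0.0408) and -1.39 ± 0.42 after PMA (adjusted p 0.0195). Over all genes 17% were higher and 15.8% lower untreated, and 18.4% and 15.3% after PMA. Without AsPC-1 PMA replicate 1 the S100A1 difference after PMA was -1.16 ± 0.48 and not called (limma, adjusted p 0.0683). S100A13, which takes part in the release of fibroblast growth factor, differed by 0.20 untreated and 0.39 after PMA, with adjusted p-values of 0.485 and 0.151. Without that array it was called after PMA, at 0.62 ± 0.16 with an adjusted p of 0.00590, so 2 of 6 were higher and 0 lower. Over all 16110 genes 3853 were then called higher and 2739 lower. S100A7, or psoriasin, was too dim to test, with signals between 0.618 and 4.86.

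Annexins are the calcium-dependent membrane proteins that S100A10, S100A11 and S100A6 bind, and 11 of 12 listed were tested. ANXA2, the partner of S100A10, had 6735, 7687 and 6816 in BxPC-3 with PMA and 5314, 7236 and 5796 in untreated BxPC-3, against 6535, 7889 and 7816 with PMA and 5776, 7596 and 6389.7 untreated in AsPC-1. It differed by -0.11 ± 0.14 untreated and -0.06 ± 0.14 after PMA, with adjusted p-values of 0.579 and 0.768. ANXA1, the partner of S100A11, was higher in BxPC-3 by 1.10 ± 0.13 untreated (adjusted p 2.37e-05) and 1.56 ± 0.13 after PMA (adjusted p 9.39e-07). Untreated, 3 annexins were higher and 3 lower, among them ANXA10, an annexin of gastric epithelium, at 5.50 ± 0.54, and ANXA13, an intestinal annexin, at -7.43 ± 0.74. After PMA 2 were higher and 4 lower. The shares over all genes were 17% higher and 15.8% lower untreated, and 18.4% and 15.3% after PMA. The list's median was -0.11 untreated beside -0.08 for all genes, and -0.19 after PMA beside 0.03. PMA raised ANXA5 by 0.86 ± 0.15 in AsPC-1 (adjusted p 0.0121), at 1757, 2296 and 2257 with PMA against 1091, 1167 and 1197 untreated. That was the 1 of 11 called in AsPC-1. In BxPC-3 0 of 11 were called, with 4 at an unadjusted p under 0.05 in limma, beside 3381 of all 16110 genes. With passage as a block 1 rose and 1 fell in BxPC-3. In a fit lacking AsPC-1 PMA replicate 1, ANXA11 was called in BxPC-3 with PMA, at 0.47 ± 0.13 (adjusted p 0.0281), and after PMA between the lines, at 0.39 ± 0.15 (adjusted p 0.0481).

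Receptors to which released S100 proteins bind were measured for 8 of 9 listed. AGER, the RAGE gene, was dim in both lines: group means lay between 5.09 and 9.93, and no comparison called it. TLR4, the lipopolysaccharide receptor that S100A8 and S100A9 can bind, had 407, 196 and 313 in BxPC-3 with PMA and 171, 185 and 79.3 in untreated BxPC-3, against 80.0, 46.0 and 32.3 with PMA and 62.3, 129.7 and 122 untreated in AsPC-1. After PMA it was higher in BxPC-3 by 2.50 ± 0.41 (adjusted p 0.000357), while untreated cells differed by 0.44 ± 0.41 (adjusted p 0.462). Its probe set carries the suffix of sets that may bind other transcripts too, as do those of ANXA2, CACYBP, KRT8 and KRT18. The difference of the TLR4 responses was 2.06 ± 0.58 (limma, adjusted p 0.228), and 2.39 with 0.0250 without AsPC-1 PMA replicate 1. Untreated, 2 of 8 receptors were higher in BxPC-3 and none lower. They were ALCAM, an adhesion molecule, by 4.73 ± 0.22 and basigin (BSG), a reported S100A9 receptor, by 1.29 ± 0.22. After PMA 3 were higher and none lower. Of all genes tested, 17% were called higher and 15.8% lower untreated, and 18.4% and 15.3% after PMA. With PMA 0 of 8 were called in either line, with 2 at an unadjusted p under 0.05 in each. Over all 16110 genes 3381 were under it in BxPC-3 and 2675 in AsPC-1. In a fit lacking AsPC-1 PMA replicate 1, TLR4 fell by 1.30 ± 0.40 in AsPC-1 (adjusted p 0.0361), and NPTN rose in BxPC-3 by 0.37 ± 0.11 (adjusted p 0.0294).

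Proteins that S100 dimers bind inside the cell were tested for 24 of 26 listed. In each state 7 were higher and 3 lower in BxPC-3. Plastin 2 (LCP1), an actin-bundling protein, had 1061, 1109.8 and 1064 in BxPC-3 with PMA and 945, 996 and 740.4 in untreated BxPC-3, against 6.06, 19.8 and 19.3 with PMA and 27.9, 27.6 and 9.13 untreated in AsPC-1. It differed by 5.30 ± 0.39 untreated and 6.02 ± 0.39 after PMA, and PLA2G4A, the cytosolic phospholipase that frees arachidonic acid, by 6.97 ± 0.33 and 7.60 ± 0.33, a gene at signals of 5.59 or less in AsPC-1. Without AsPC-1 PMA replicate 1 the differences after PMA were 5.58 for LCP1 and 7.39 for PLA2G4A. The S100A6 partner CACYBP was lower in BxPC-3, at -0.65 ± 0.23 untreated (adjusted p 0.0492) and -1.11 ± 0.23 after PMA (adjusted p 0.00222). Without AsPC-1 PMA replicate 1 its difference after PMA was -0.79 ± 0.17 (limma, adjusted p 0.00169). The S100A4 partner MYH9, the heavy chain of non-muscle myosin IIA, differed by -0.31 ± 0.19 untreated and -0.38 ± 0.19 after PMA (adjusted p 0.228 and 0.137), and without AsPC-1 PMA replicate 1 it was called after PMA, at -0.52 ± 0.17 (adjusted p 0.0256). Ezrin (EZR), the S100P partner, differed by -0.23 ± 0.21 and -0.27 ± 0.21 (adjusted p 0.450 and 0.371), and without that array it was called too, at -0.54 ± 0.16 after PMA (adjusted p 0.0164). Without it, 9 of the 24 were higher and 6 lower in each state. Over all genes 3426 were then higher and 3171 lower untreated, and 3853 and 2739 after PMA. With it they were 2732 and 2542 untreated, and 2967 and 2467 after PMA. PMA raised 2 of 24 in BxPC-3, the co-chaperone STIP1 by 0.87 ± 0.23 (adjusted p 0.0436) and the GTPase RAC1 by 0.49 ± 0.12 (adjusted p 0.0327). In AsPC-1 0 of 24 were called, with 3 at an unadjusted p under 0.05, beside 2675 of all 16110 genes. In a fit lacking AsPC-1 PMA replicate 1, 2 rose and 2 fell in AsPC-1: EZR changed by 0.54 ± 0.16 (adjusted p 0.0335), DIAPH1 by 0.46 ± 0.12 (adjusted p 0.0146), the S100P-binding protein S100PBP by -2.15 ± 0.28 (adjusted p 0.000139) and STUB1 by -0.47 ± 0.14 (adjusted p 0.0297). In BxPC-3 S100PBP, at -1.21 ± 0.25 (adjusted p 0.00560), and CACYBP, at -0.50 ± 0.15 (adjusted p 0.0391), were then called beside STIP1 and RAC1. With all arrays the S100PBP change in AsPC-1 was -1.41 ± 0.49 (limma, adjusted p 0.161). Its signals there were 129.7, 26.1 and 25.1 with PMA and 183.9, 118.8 and 86.3 untreated. The highest untreated signal was that of replicate 1, which the fit kept. CACYBP, DIAPH1, S100PBP, STUB1, ANXA11 and NPTN were named after their values were seen. The list's median between the lines was 0.10 untreated and 0.13 after PMA.

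**Figure D4:**
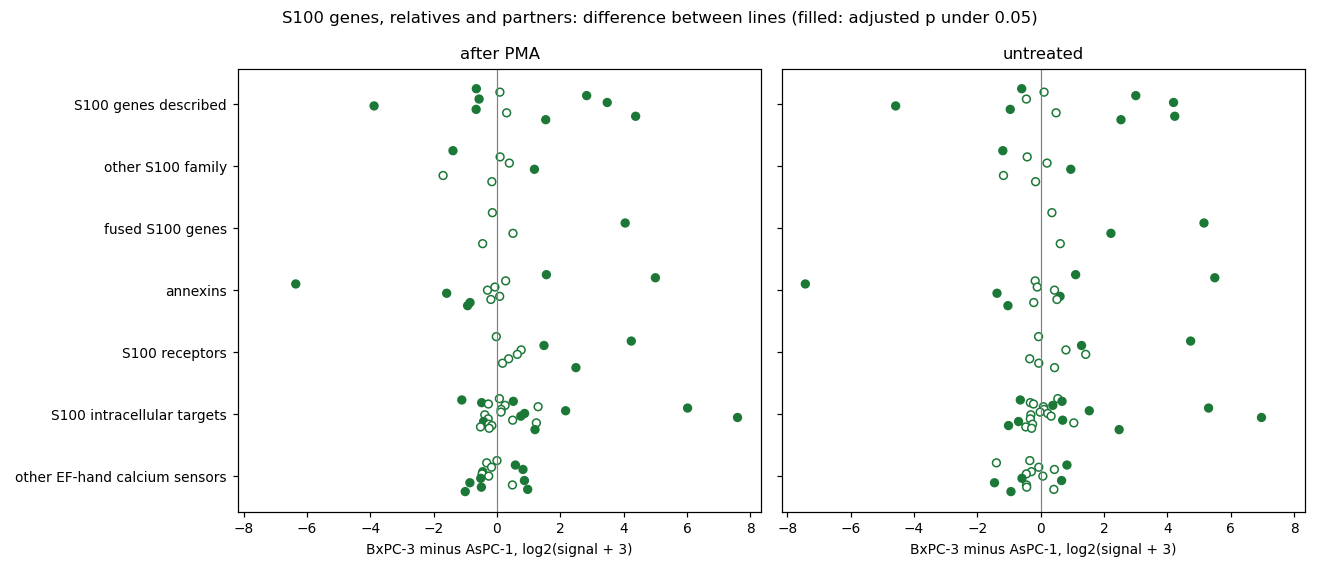
Difference between the lines, BxPC-3 minus AsPC-1 in log2(signal + 3), after PMA (left) and untreated (right) for the 10 S100 genes described, other S100 genes, fused S100 genes, annexins, S100 receptors, S100 intracellular targets and other EF-hand calcium sensors. Each point is a gene, and filled points have an adjusted p under 0.05 in limma; the S100 genes reach from -4.58 to 4.38.

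The genes most like each member over the 12 arrays were found by the root mean square difference from it after each gene was centred on its mean, over 16100 genes that are not members. For S100A2 they were AIF1L, SHANK2 and LYPD6B, at 0.33, 0.43 and 0.44 log2 units. For S100A4 they were FAM20C, CHST3 and CAPN10, at 0.30, 0.32 and 0.35. S100A6 was nearest to ATP6V0C at 0.12, FSTL3 at 0.16 and CLTA at 0.17. S100A9 was nearest to SLC27A2 at 0.37, SLC16A7 at 0.40 and KRTCAP3 at 0.42. For S100A14 they were CARD8-AS1 at 0.29, C21orf91 at 0.29 and TLR2 at 0.30, and for S100P HOMER1 at 0.35, LRRC8B at 0.37 and LOC728392 at 0.38. These values describe likeness over 4 groups and carry no test. S100A8, S100A10, S100A11 and S100A16 had group means within 1 log2 unit and were not searched.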

How the data were processed

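The authors deposited 1 table of MAS5 signal intensity on a linear scale for 54675 probe sets and 12 arrays; MAS5 is named per the submitters' processing notes, with no version. The table holds no detection calls. The platform annotation gave 41091 probe sets 1 symbol, 1801 several and 11721 none; 62 control probe sets were left out, and 41037 probe sets matched RefSeq by gene ID with 0 symbols changed. Genes were tested where the signal passed the 40th percentile of its array (8.18 to 10.2) on at least 3 arrays. log2(signal + 3) was fitted with limma 3.58.1 in R 4.3.3 (4 group means over 12 arrays, trended eBayes, 8 residual degrees of freedom) without further normalization, and p-values were two-sided and adjusted over 16110 genes. A 3-against-3 exact permutation test cannot go below 0.1, so none was used. The script was tested on simulated data.

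Per the labels, same-numbered arrays of a line share a passage and so form pairs. Their deviations from the group means had correlations of -0.05, -0.13 and -0.06 for the BxPC-3 passages, against 0.416, 0.208 and 0.160 for those of AsPC-1. Passage as a block, other scalings, pseudocounts, filters, probe set rules and variance settings, and leaving out each array were the alternatives. The S100 genes and the gene lists were chosen with earlier results of these data known. Named genes were the 10 S100 genes, the 9 relatives and partners fixed by name, and up to 3 called genes a list and comparison with the largest changes. Further genes, named after their values were seen, are marked as such. Protein sequences were not used here.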

Additional observations from a re-analysis of the deposited data

How the results depend on the processing

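In 1130 recomputed changes of the 10 S100 genes, 1053 kept direction and side of the threshold, 35 lost a call, 10 gained one and 32 uncalled changes turned sign; no called change reversed. S100A2, S100A4, S100A6, S100A9, S100A14 and S100P kept their calls between the lines in 23 of 23 alternatives, untreated and after PMA, and S100A10 in 20 and 21. Many of these alternatives could not move a log2 change. S100A2, S100A4, S100A9, S100A11, S100A14, S100A16 and S100P have 1 probe set, so the probe set rules reread the same signals. The variance setting, the block, own arrays alone and leaving out an array from outside the comparison changed only the p-value. In BxPC-3, 2 S100 genes were called with PMA, against 1 with quantile normalization, the mean of all probe sets, the second probe set or eBayes without trend, and 4 with the arrays of that comparison alone. In AsPC-1, 1 was called, against 2 with median centring (S100A2 and S100A11) and 0 with quantile normalization, no filter, the mean of probe sets, the second probe set, eBayes without trend, or its own arrays alone. With passage as a replicate block it was 2 (S100P and S100A11), and in BxPC-3 3. The block changed no other call of the 10 S100 genes. Of the 6 other S100 genes tested, 1 was called higher with PMA in AsPC-1 with the block, against 0 without it. Without each array in turn the counts ran from 1 to 3 in BxPC-3, 0 to 1 in AsPC-1, 7 to 8 between lines untreated and 7 to 8 after PMA, and stayed at 0 for the difference of responses; S100P in AsPC-1 lost its call without 9 of the 12 arrays. The cause was not tested. Over all genes PMA called 968 in BxPC-3 and 313 in AsPC-1, against 1681 and 899 with the block (952 and 310 shared), 2426 and 3167 without AsPC-1 PMA replicate 1, 3574 and 0 with own arrays alone, and a low of 330 in BxPC-3 without untreated replicate 3. In AsPC-1 it called 151 with the mean of probe sets, 162 with the second probe set and 121 without trend. Of the differences of responses 80 were called, against 128 with the block, 42 with median centring, and 9 to 724 without an array. S100A8 everywhere and S100A9 in AsPC-1 were close to background signal, which limits what can be said of them.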

Other observations

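The fused S100 genes, long proteins of the cornified layer that begin with an S100 domain, lie in the same cluster, and 4 of 7 listed were tested. Filaggrin (FLG) had 108, 146 and 95.1 in BxPC-3 with PMA and 174, 199.6 and 483 in untreated BxPC-3, while no AsPC-1 array passed 7.76. It was higher in BxPC-3 by 5.16 ± 0.46 untreated (limma, adjusted p 1.32e-06) and 4.05 ± 0.46 after PMA (adjusted p 1.34e-05). Repetin (RPTN) fell with PMA in BxPC-3, with a change of -2.04 ± 0.45 (adjusted p 0.0171), at 2.03, 5.83 and 0.791 with PMA against 17.1, 16.1 and 27.4 untreated, all dim. It was the 1 of 4 called there, and 3 of 4 were lower at an unadjusted p under 0.05 in limma. In AsPC-1 0 of 4 were called and 0 of 4 reached that limit. Over all 16110 genes 3381 reached it in BxPC-3 and 2675 in AsPC-1, in either direction. In a fit lacking AsPC-1 PMA replicate 1, 3 of 4 fell in BxPC-3, with FLG at -1.14 ± 0.36 (adjusted p 0.0465) and trichohyalin (TCHH) at -1.56 ± 0.48 (adjusted p 0.0456). Untreated, 2 of 4 were higher in BxPC-3, and after PMA 1 of 4, where 17% and 18.4% of all genes were higher.

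Other EF-hand calcium sensors were tested for 15 of 18 listed. EFHD2, an actin-binding calcium sensor, rose with PMA in BxPC-3 by 0.67 ± 0.18 (limma, adjusted p 0.0410), and was the 1 of 15 called. Its signals were 762, 756 and 688 with PMA against 474, 542 and 382 untreated. In AsPC-1 0 of 15 were called, with 3 at an unadjusted p under 0.05, beside 2675 of all 16110 genes. In a fit lacking AsPC-1 PMA replicate 1, PDCD6 rose by 0.69 ± 0.13 (adjusted p 0.00232), CETN3 fell by 1.07 ± 0.19 (adjusted p 0.00146) and NCS1 fell by 1.06 ± 0.32 (adjusted p 0.0307) in AsPC-1, and in BxPC-3 3 rose (EFHD2, PDCD6 and PEF1) and 2 fell (CETN2 and CETN3). TCHH, PDCD6, CETN3, NCS1, PEF1 and CETN2 were named after their values were seen. Between the lines 2 were higher and 3 lower in BxPC-3 untreated, and 4 and 5 after PMA. All genes tested gave 17% higher and 15.8% lower untreated, and 18.4% and 15.3% after PMA. Grancalcin (GCA) differed by -1.46 ± 0.21 untreated and sorcin (SRI) by -0.94 ± 0.13. The list's median was -0.34 untreated beside -0.08 for all genes.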
